A study of Arabidopsis thaliana with 4 samples.

Results

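UGT genes encode UDP-glycosyltransferases, which move a sugar from a nucleotide sugar donor to a small acceptor molecule. In plants the acceptors include flavonoids, lignin precursors, hormones and foreign compounds, and the added sugar commonly makes the acceptor more soluble and changes its activity, transport or storage. The number after UGT names a family, the next letter a subfamily and the last number a gene. The 47 probe sets described here are all those whose single gene symbol in the platform annotation has this form, out of 22746 probe sets on the array without its 64 Affymetrix controls. UGT75C1 and UGT74C1 were left out by definition, and 3 further probe sets that the annotation assigns to several genes, UGT genes among them, were not used. The 47 probe sets stand for 47 loci in 11 families, numbered 71 to 88.

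The arrays measured total RNA of Arabidopsis thaliana shoots, harvested from seedlings grown for 10 days. The eif3h group carries the eif3h-1 allele, a T-DNA insertion in the gene for the h subunit of translation initiation factor eIF3 that leaves a protein without its C-terminal end, and the WT group is the wild type. Plants of both groups grew on Murashige and Skoog medium with sucrose under continuous light. Each group has 2 Affymetrix ATH1 arrays, 1 from each of 2 experimental repeats, whose RNA was prepared independently on different days. The ecotype Wassilewskija is named for reporter lines of the same allele, and none for the array plants. The mutant is a single allele, and the shoots of many seedlings were harvested together for a sample.

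The measured value of a probe set is its MAS 5.0 signal, a brightness on a linear scale that the authors had scaled to the same trimmed mean on each array. Probe sets differ in how well they hybridize, so the brightness of different probe sets, where it is ranked below, is no measure of which transcript was more abundant. The median signal of all probe sets was 208 and 220.4 on the eif3h arrays and 200.4 and 217 on the WT arrays. Transcripts of the mutated gene itself (TIF3H1, At1g10840) had signals of 245 and 432 in eif3h seedlings, against 1363 and 1020.5 in WT seedlings, a log2 ratio of -1.86 (adjusted p = 0.00707 from limma). No probe set was named for any of the 8 markers of photosynthetic shoot tissue looked for, so the labelled tissue could not be checked with them. Of 7 root markers, EXPA7 and EXPA18 had named probe sets, with signals from 61.8 to 217 over all arrays. For EXPA7 the log2 ratios were 0.34 and 0.83 in repeats 1 and 2, and for EXPA18 they were 0.09 and 0.22. Whether root tissue had a part in the ratios below was not tested. Fewer cells of a type and less RNA per cell cannot be told apart in such samples.

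Most UGT probe sets were dim in these shoots. On the eif3h arrays 17 and 17 of the 47 lay above the array's median, and on the WT arrays 19 and 20. Of the 47, 15 were above the median on all 4 arrays and 26 on none. The median UGT signal was 95.2 and 105 on the eif3h arrays and 74.4 and 127 on the WT arrays. A probe set was tested only if its mean signal (geometric, over the 4 arrays) was at least 327, a limit that left 13915 of the 22746 probe sets out. This left 14 UGT probe sets for the test, and 33 were not tested. UGT71C5 was just above this limit, at 342, and UGT76C1 was just below it, at 324. The mean was taken over both genotypes. UGT71C5 and UGT85A2 were under the limit on both eif3h arrays and above it on both WT arrays, so they reached the test only through the WT arrays.

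**Figure D1:**
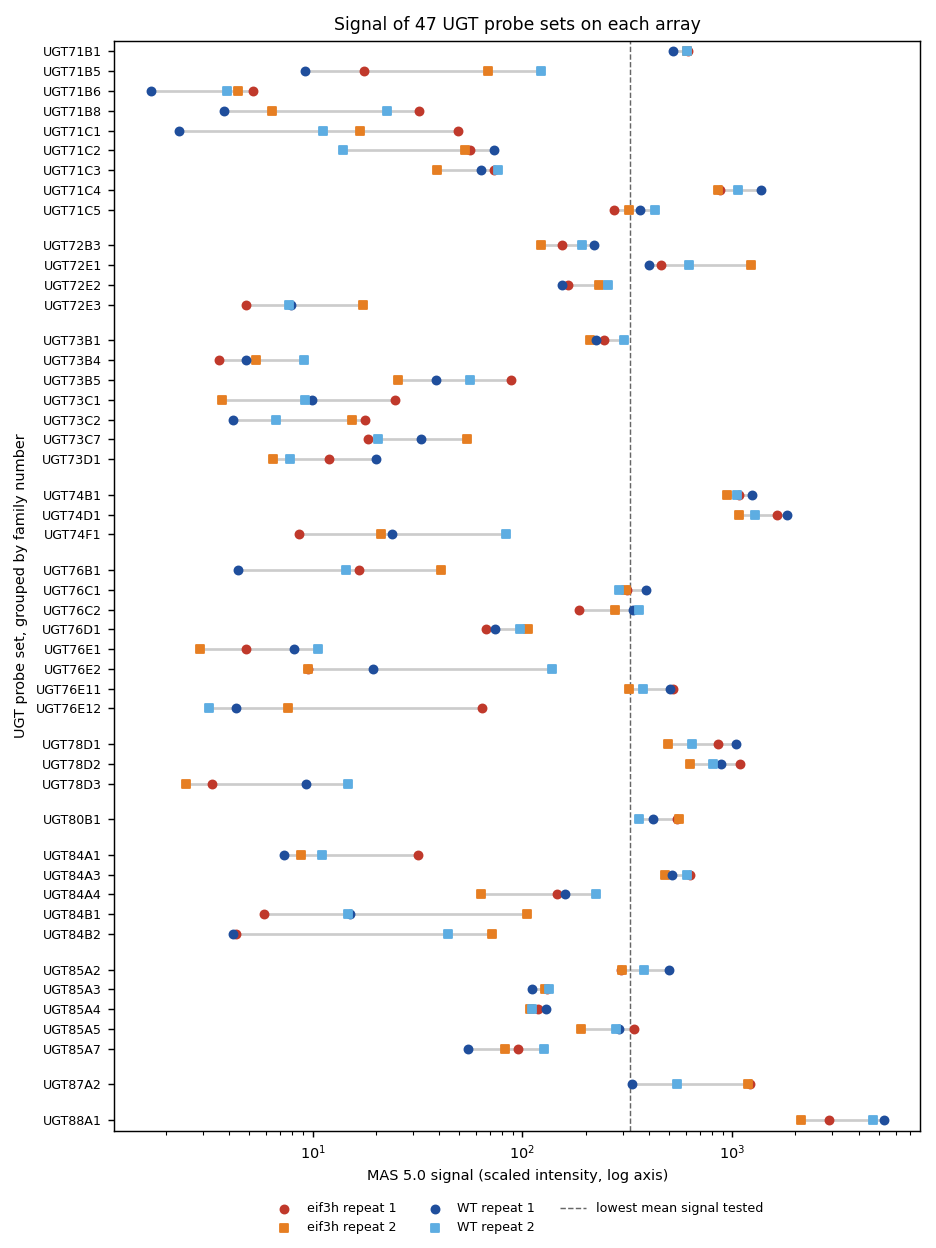
MAS 5.0 signal (log axis) of each of the 47 UGT probe sets on the 2 eif3h and 2 WT arrays, 1 point per array, grouped by family number. The dashed line marks 327, the lowest mean signal among tested probe sets, and UGT88A1 lies farthest to the right, with 2117 to 5275.

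In the eif3h mutant 1 of the 14 tested UGT transcripts rose, UGT87A2, and 1 fell, UGT88A1, while 12 did not pass. Log2 signals were compared with limma, with a term for the experimental repeat, and a transcript is said to have risen or fallen where the p-value adjusted over all tested probe sets (Benjamini-Hochberg) was under 0.05. Of all tested probe sets 18.2% were called, 8.49% as higher and 9.68% as lower in the mutant, so the 14.3% of UGT probe sets that were called lies near this background. The median log2 ratio of the 14 was -0.14, with -0.058 in repeat 1 and -0.28 in repeat 2, against 0.03 over all tested probe sets. The 14 include UGT71C5 and UGT85A2, which passed the limit only through their WT arrays, so this median is set in part by the limit. With 2 arrays in each group an exact permutation test of a single gene cannot give a two-sided p below 0.333, so every call rests on the spread that limma shares between probe sets.

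UGT87A2 (At2g30140), a gene known for an effect on flowering time, had signals of 1220.2 and 1189 in eif3h seedlings, against 332 and 544 in WT seedlings. Both mutant arrays lay above both WT arrays, and the mutant arrays differed little from each other. The log2 ratio was 1.88 in repeat 1 and 1.13 in repeat 2, with a mean of 1.503 ± 0.53 (SD, n = 2 repeats), a 2.83-fold higher level in the mutant (standard error 0.22, adjusted p = 0.00604 from limma). UGT88A1 (At3g16520), the brightest UGT probe set, had signals of 2899.5 and 2117 in eif3h seedlings, against 5275 and 4710.0 in WT seedlings. The log2 ratio was -0.86 in repeat 1 and -1.15 in repeat 2, with a mean of -1.01 ± 0.21 (SD, n = 2 repeats), or 2.01-fold lower in the mutant (standard error 0.18, adjusted p = 0.0116 from limma). Again the groups did not overlap. Families 87 and 88 have no other member here, so neither value can be set beside a close relative. Both calls were lost without the term for the repeat, where limma called 0.917% of tested probe sets (adjusted p = 0.0754 for UGT87A2 and 0.113 for UGT88A1), and when all 22746 probe sets were tested (adjusted p = 0.414 for each from limma). With 1 array left out, also without that term, UGT88A1 had an adjusted p from 0.137 to 0.337 and UGT87A2 from 0.0223 (without WT replicate 2) to 0.175 (without eif3h replicate 1) in limma.

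**Figure D2:**
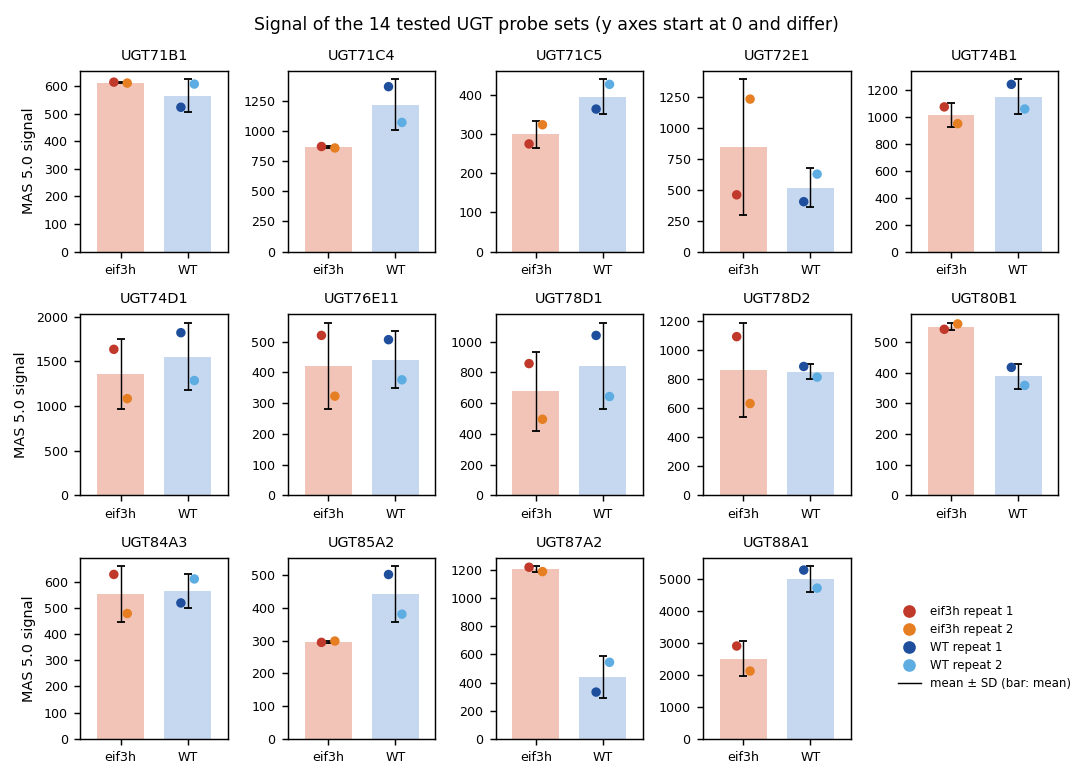
MAS 5.0 signal of the 14 tested UGT probe sets, with a bar for the mean of each group, eif3h left and WT right, a whisker for the SD (n = 2) and a point for each array. Both eif3h arrays lie above both WT arrays for UGT71B1, UGT80B1 and UGT87A2 and below them for UGT71C4, UGT71C5, UGT85A2 and UGT88A1, and the groups overlap for the other 7.

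Across the 14 tested probe sets, the arrays of the 2 genotypes did not overlap for 7. Mutant arrays were the higher ones for 3, where 28.4% of all tested probe sets show this, and the lower ones for 4, where 23.9% do. Among these 4 are UGT71C5 and UGT85A2, which passed the limit only through their WT arrays, so the count of 4 is set in part by the limit. The ratios of both repeats were above 0 for 4 of the 14 and below 0 for 7, against 40.0% and 34.7% of all tested probe sets. UGT71C5 and UGT85A2 are among these 7 too, so this count is also set in part by the limit. The mean difference over the repeats was within 1.5-fold for 12 of the 14, all but the 2 called. UGT72E1 came close to that bound, with 1.496-fold. In a single repeat, UGT72E1 (log2 ratio 0.98), UGT85A2 (-0.77), UGT71C4 (-0.65) and UGT80B1 (0.64) went beyond it. The share of all tested probe sets within 1.5-fold was not computed. These counts were not tested, because the genes share their 4 arrays.

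Family 71, with 9 probe sets, holds the abscisic acid glucosyltransferases UGT71B6 and UGT71C5. Of its 3 tested members none passed. UGT71C4 (At1g07250) was the brightest of the family, with 870.5 and 858 in eif3h seedlings, against 1366 and 1070 in WT seedlings, and a mean log2 ratio of -0.48 (adjusted p = 0.103 from limma). UGT71C5 (At1g07240) had 275 and 323 in the mutant, against 363 and 426 in WT. Its ratios agreed closely between repeats, with -0.40 in each (adjusted p = 0.139 from limma), but it was tested only because of its brighter WT arrays. For both genes the mutant arrays were below the WT arrays. UGT71B1 (At3g21750) had 614 and 610.5 in the mutant, against 523 and 607 in WT, and a mean log2 ratio of 0.12 (adjusted p = 0.663 from limma). The other 6 members had mean signals from 3.51 to 60.9 and were not tested. UGT71B6 had 5.2 and 4.4 in the mutant, against 1.7 and 3.9 in WT, all far below the array medians, and log2 ratios of 1.61 and 0.17. UGT71C1 had the highest single ratio of all members, 4.42 in repeat 1, from signals of 49.1 in the mutant and 2.3 in WT, but 0.59 in repeat 2. UGT71B8 was similar in repeat 1, with 32.1 in the mutant and 3.8 in WT, but had 6.4 in the mutant and 22.6 in WT in repeat 2. UGT71B5 had 17.6 and 68.2 in the mutant, against 9.2 and 123 in WT. UGT71C2 had 56.3 and 53.3 in the mutant, against 73.1 and 13.9 in WT, and UGT71C3 had 73.0 and 39.1 in the mutant, against 63.4 and 76.2 in WT. For these 4 probe sets the repeats gave opposite signs. The median of the mean log2 ratios over the 9 members was 0.12, but the family's median ratio was 0.23 in repeat 1 and -0.32 in repeat 2.

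Family 72 includes UGT72E1, UGT72E2 and UGT72E3, which glucosylate monolignols and their aldehydes, the building blocks of lignin. UGT72E1 (At3g50740), the brightest and only tested member, had 459 and 1231 in eif3h seedlings, against 403 and 626 in WT seedlings. Its signal was higher in repeat 2 in both genotypes, and the groups overlapped. The log2 ratio was 0.19 in repeat 1 and 0.98 in repeat 2 (mean 0.58, adjusted p = 0.108 from limma). UGT72E2 had 165 and 231 in the mutant, against 155 and 256 in WT, with ratios of 0.09 and -0.15. UGT72E3 had signals from 4.8 to 17.4. UGT72B3 (At1g01420) had 154 and 122 in the mutant, against 220.0 and 193 in WT, and its mutant arrays were both below its WT arrays, with log2 ratios of -0.52 and -0.66. It was too dim to be tested.

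Family 73, with 7 probe sets, had no tested member. UGT73B1 (At4g34138) was the brightest, with 245 and 210 in eif3h seedlings, against 225 and 304 in WT seedlings. The repeats gave opposite signs for it, 0.12 and -0.53. The other 6 had mean signals from 5.40 to 46.98. Of these UGT73C2 (At2g36760) was more than 2-fold higher in both repeats, with 17.8 and 15.4 in the mutant, against 4.2 and 6.7 in WT. Its neighbour UGT73C1 had ratios of 1.32 and -1.31. UGT73B5 had 88.0 and 25.6 in the mutant, against 38.6 and 56.0 in WT, and UGT73C7 had 18.3 and 54.6 in the mutant, against 32.8 and 20.5 in WT, again with opposite signs in the repeats. UGT73B4 and UGT73D1 were lower in the mutant in both repeats, with ratios of -0.42 and -0.75 and of -0.74 and -0.26, but their signals on the 4 arrays were from 3.6 up to 20. The median of the mean ratios in the family was 0.0025, the value of UGT73C1, whose 2 ratios nearly cancel. The family's median ratio was 0.12 in repeat 1 and -0.53 in repeat 2.

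Family 74 has 3 members here, because UGT74C1 was left out by definition. Among families with more than a single member here, only in this one was every described probe set lower in the mutant in both repeats. UGT74B1 (At1g24100), the S-glucosyltransferase of glucosinolate synthesis, had 1072 and 948 in eif3h seedlings, against 1239 and 1057 in WT seedlings. Its ratios were -0.21 and -0.16, and the groups overlapped (adjusted p = 0.481 from limma). UGT74D1 (At2g31750), which glucosylates auxin, was the brightest of the family, with 1634 and 1082 in the mutant, against 1820.4 and 1285 in WT. The difference between its repeats was larger than that between genotypes (mean log2 ratio -0.20, adjusted p = 0.436 from limma). UGT74F1 (At2g43840), which glucosylates salicylic acid, was more than 2-fold lower in both repeats, with 8.6 and 21.1 in the mutant, against 23.9 and 83.6 in WT. All of these signals lie far below the array medians, and it was not tested.

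Family 76 has 8 probe sets and 1 tested member. UGT76E11 (At3g46670) had 520.4 and 322.5 in eif3h seedlings, against 506 and 376 in WT seedlings, so that the repeats differed more than the genotypes (mean log2 ratio -0.091, adjusted p = 0.753 from limma). UGT76C1 and UGT76C2 form N-glucosides of cytokinins. UGT76C2 (At5g05860) had 187 and 278 in the mutant, against 337 and 360.5 in WT, with mutant arrays below WT arrays and ratios of -0.85 and -0.38. UGT76C1 (At5g05870) had 316 and 310.4 in the mutant, against 388 and 288.5 in WT, with overlapping groups. Neither was tested. UGT76B1 (At3g11340), which glucosylates salicylic acid and isoleucic acid, was more than 2-fold higher in both repeats, with 16.6 and 41.1 in the mutant, against 4.4 and 14.4 in WT. UGT76D1 acts on dihydroxybenzoic acids derived from salicylic acid. It had 67.4 and 107 in the mutant, against 74.4 and 97.9 in WT, with ratios of -0.14 and 0.13.

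In the UGT76E subfamily the dim members ran in opposite directions. UGT76E12 (At3g46660) was more than 2-fold higher in both repeats, with 64.2 and 7.6 in eif3h seedlings, against 4.3 and 3.2 in WT seedlings. UGT76E2 (At5g59590) was more than 2-fold lower in both, with 9.5 and 9.5 in the mutant, against 19.5 and 139 in WT. For each of them 1 array was far brighter than the other 3, repeat 1 of the mutant for UGT76E12 and repeat 2 of WT for UGT76E2. UGT76E1 had ratios of -0.77 and -1.87 from signals between 2.9 and 10.6.

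Family 78 comprises glycosyltransferases of flavonols and anthocyanidins that act on the 3-hydroxyl group. UGT78D1 (At1g30530), a rhamnosyltransferase, had 857 and 494.5 in eif3h seedlings, against 1040.1 and 642.5 in WT seedlings. It was lower in the mutant in both repeats, by 0.28 and 0.38 on the log2 scale, and lower in repeat 2 than in repeat 1 in both genotypes (adjusted p = 0.214 from limma). UGT78D2 (At5g17050), a glucosyltransferase and the brightest of the family, had 1091 and 631 in the mutant, against 885.5 and 812 in WT. Its ratios had opposite signs, 0.30 and -0.36 (adjusted p = 0.932 from limma). UGT78D3 (At5g17030), an arabinosyltransferase, was more than 2-fold lower in both repeats, but from signals of only 3.3 and 2.5 in the mutant, against 9.3 and 14.8 in WT.

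UGT80B1 (At1g43620), a sterol glucosyltransferase, had 543 and 560.2 in eif3h seedlings, against 418 and 359 in WT seedlings. Both mutant arrays were above both WT arrays, with log2 ratios of 0.38 and 0.64, and it did not pass (mean 0.51, adjusted p = 0.0852 from limma). Family 84 includes hydroxycinnamate glucosyltransferases (UGT84A1 and UGT84A3) and the auxin glucosyltransferase UGT84B1. UGT84A3 (At4g15490) was the only tested member of that family, with 627 and 478 in the mutant, against 518 and 609.8 in WT. Its ratios were 0.28 and -0.35 (adjusted p = 0.915 from limma). UGT84A4 (At4g15500) had 146 and 63.5 in the mutant, against 159 and 225.5 in WT, lower in both repeats but by very different amounts, with ratios of -0.13 and -1.83. UGT84B1 had 5.9 and 105 in the mutant, against 15.0 and 14.7 in WT, so that a single array stood apart. Its neighbour UGT84B2 was also brighter in repeat 2, with 4.3 and 72.0 in the mutant, against 4.2 and 44.4 in WT. UGT84A1 had 31.8 and 8.8 in the mutant, against 7.3 and 11.1 in WT, with ratios of 2.12 and -0.33.

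Family 85 has 5 probe sets, of which UGT85A2 (At1g22360) was the brightest and was tested. It had 295 and 299 in eif3h seedlings, against 502 and 381 in WT seedlings. Both mutant arrays were below both WT arrays, and it did not pass (log2 ratios -0.77 and -0.35, mean -0.56, adjusted p = 0.0763 from limma). Like UGT71C5 it was tested only because of its WT arrays. UGT85A3 had 131 and 129 in the mutant, against 111 and 134 in WT, and UGT85A4 had 119 and 109 in the mutant, against 130.2 and 111 in WT. Both were measured at similar brightness on all 4 arrays, and their ratios lay between -0.13 and 0.25. UGT85A5 had 339 and 191 in the mutant, against 288.5 and 281 in WT, and UGT85A7 had 95.2 and 82.9 in the mutant, against 55.1 and 127 in WT. For both the repeats gave opposite signs. The median of the mean log2 ratios in the family was -0.077, with a median ratio of 0.23 in repeat 1 and -0.35 in repeat 2.

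**Figure D3:**
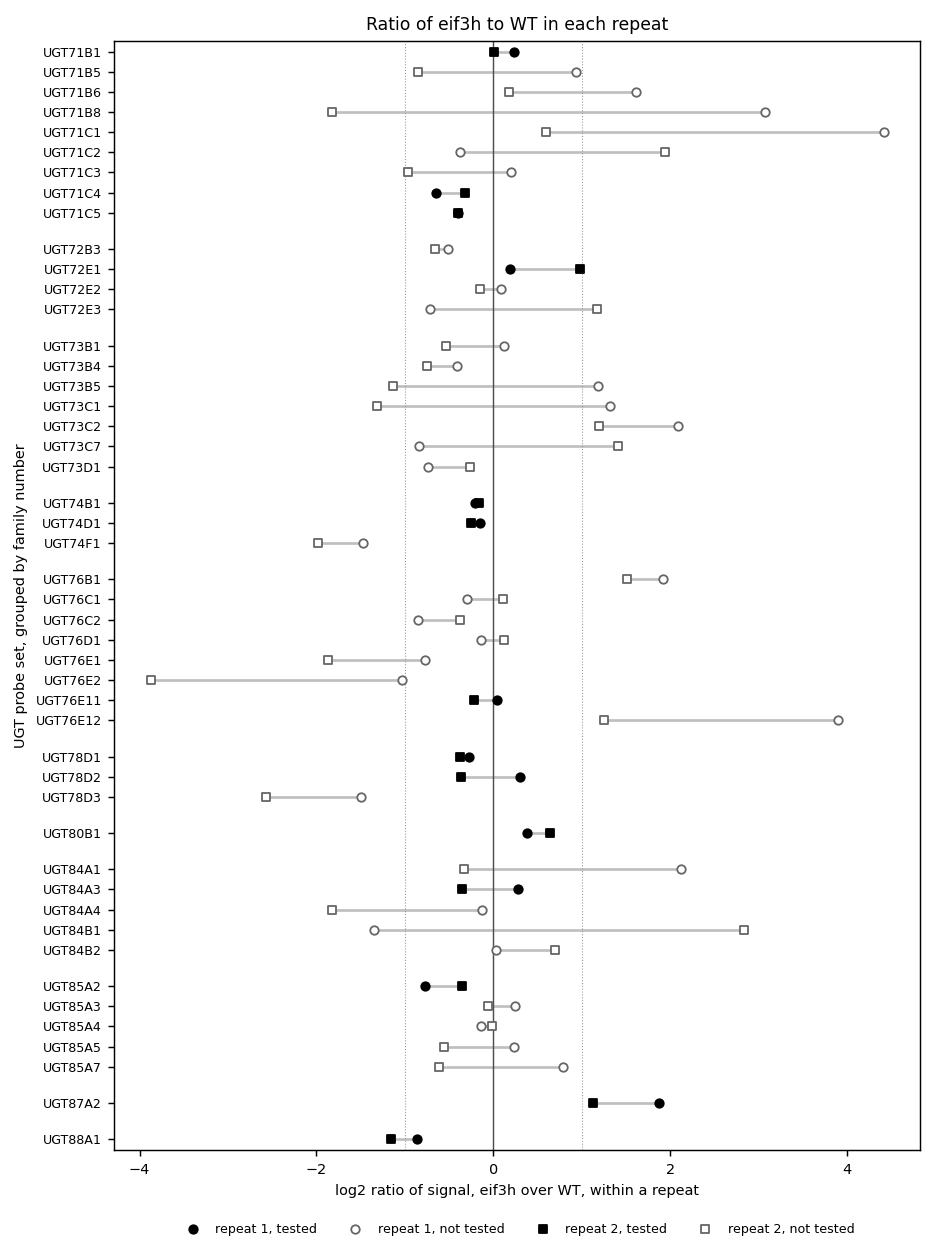
Log2 ratio of signal, eif3h over WT, within repeat 1 (circles) and repeat 2 (squares) for the 47 UGT probe sets, grouped by family number, with filled symbols for the 14 tested. Dotted lines mark 2-fold, and the ratios run from -3.87 for UGT76E2 to 4.42 for UGT71C1, both not tested.

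Over all 47 members, the ratios of both repeats were above 0 for 10 and below 0 for 17, against 34.1% and 30.2% of all probe sets. The mutant arrays lay above the WT arrays for 8 members and below them for 11, where 22.1% and 19.2% of all probe sets do. Among the 33 members that were not tested these counts were 5 and 7, against 18.1% and 16.2% of all probe sets below the limit. Of the 47, 7 were more than 2-fold apart in the same direction in both repeats. Of the 4 higher in the mutant, UGT87A2 was tested and UGT73C2, UGT76B1 and UGT76E12 were not. The 3 lower ones, UGT74F1, UGT76E2 and UGT78D3, were all below the limit for testing. Over all 22746 probe sets 3.44% were more than 2-fold higher and 3.78% more than 2-fold lower in both repeats. Among the 13915 probe sets below the limit these shares were 4.77% and 4.61%, and 1.34% and 2.46% among those tested. When limma was run on all probe sets, 6 of the 47 (12.8%) had an unadjusted p under 0.05, against 11.8% of all probe sets, and no probe set passed after adjustment. The 6 were UGT76B1, UGT74F1, UGT78D3, UGT73C2, UGT87A2 and UGT88A1. The lowest adjusted p was 0.414. Detection calls were not part of the values used here, so it is not known which of the dim probe sets measured a transcript.

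The ratios of the repeats lay closer together for brighter members. For the 18 members with a mean signal under 32, the log2 ratios of the repeats differed by a median of 1.67. For the 8 members from 32 up to 128 this difference was 1.29, for the 7 from 128 up to 327 it was 0.48, and for the 14 tested members it was 0.28. Over all probe sets in the same classes the medians were 1.58, 0.85, 0.40 and 0.26. The repeats gave opposite signs for 20 of the 47 members, and this did not follow brightness step by step. From the dimmest class to the tested one it was 6 of 18, 7 of 8, 4 of 7 and 3 of 14 (UGT76E11, UGT78D2 and UGT84A3). Of all probe sets 35.7% had opposite signs. In the same classes this share fell with brightness, from 49.4% through 42.9% and 36.2% to 25.3% of the tested ones. The classes hold few members, and their uneven counts were not tested against these shares. Across the 14 tested members the ratios of repeat 1 and repeat 2 had a correlation of 0.77, and across the 33 not tested of 0.20. These are descriptions across genes that share arrays, and over all tested and not tested probe sets the correlations were 0.74 and 0.20.

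**Figure D4:**
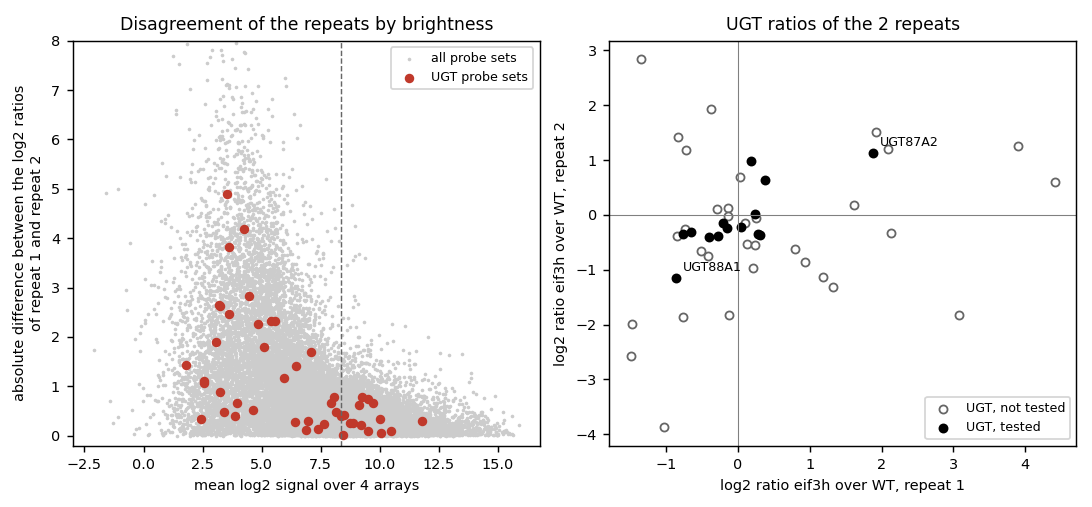
Left, absolute difference between the log2 ratios (eif3h over WT) of repeat 1 and repeat 2 against the mean log2 signal over 4 arrays, for all probe sets (grey; 5 beyond 8 are not drawn) and UGT probe sets (red), with the limit for testing dashed. Right, the ratio of repeat 2 against that of repeat 1 for UGT probe sets, tested (filled) and not tested (open). UGT87A2 (1.88 and 1.13) lies at the upper right and UGT88A1 (-0.86 and -1.15) at the lower left of the tested ones.

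UGT transcripts also differed between the repeats, and the RNA of a repeat shares its preparation, scanning day and scanner, so these cannot be told apart. Of the 14 tested members, 7 were lower in repeat 2 than in repeat 1 in both genotypes (UGT71C4, UGT74B1, UGT74D1, UGT76E11, UGT78D1, UGT78D2 and UGT88A1), and 2 were higher in both (UGT71C5 and UGT72E1). Of all tested probe sets 34.1% were lower and 33.7% higher in both. The change of UGT78D1 from repeat 1 to repeat 2 was -0.79 in eif3h seedlings and -0.69 in WT seedlings on the log2 scale, larger than its difference between genotypes. For UGT72E1 it was 1.42 in the mutant and 0.63 in WT.

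Many of these genes are neighbours. UGT genes commonly arose by tandem duplication, which was not examined for these members. In the order of protein-coding genes of the RefSeq annotation (TAIR10.1), 30 of the 47 members lie in 13 clusters with at most 1 other gene between neighbours, 10 of 2 members, 2 of 3 and 1 of 4. Of the 17 neighbouring pairs, the mean log2 ratios had the same sign in 11 and opposite signs in 6. No such share was computed for genes that are not neighbours, so whether neighbours changed together was not tested. Only UGT71C5 and UGT71C4 form a pair with both members tested, and UGT71C5 was tested only because of its brighter WT arrays. Some signs come from means near 0 whose repeats disagreed, as for UGT73C1 (0.0025) and UGT78D2 (-0.032). Closest were UGT71C5 and UGT71C4, with -0.40 and -0.48, followed in the gene order by UGT71C3 with -0.38, which was too dim to be tested and had opposite signs in the repeats. In the cluster of UGT85A7, UGT85A2, UGT85A5 and UGT85A3 the mean ratios were 0.09, -0.56, -0.16 and 0.09. UGT78D2 and UGT78D3 had -0.032 and -2.03, and UGT76E11 and UGT76E12 had -0.091 and 2.57, but in each of these pairs the larger value comes from a probe set far below the limit. Neighbours are close in sequence, and while none of the 47 probe sets carries the suffix with which Affymetrix marks probes shared by several genes, hybridization between relatives was not tested.

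Genes that act beside the UGT enzymes could be followed only in part, because few of the genes looked for had a named probe set. Among 8 glycosyltransferase genes of the same kind that bear other symbols, 3 were named and tested. UF3GT (At5g54060), of anthocyanin synthesis, rose, with 880 and 338.5 in eif3h seedlings, against 490.1 and 239.8 in WT seedlings (adjusted p = 0.0430 from limma). The groups overlapped, the repeats differed more than the genotypes, and the call was lost without the term for the repeat (adjusted p = 0.509 from limma). IAGLU (At4g15550), which glucosylates auxin, had log2 ratios of -0.33 and -0.61, and GT72B1 (At4g01070), which conjugates chlorinated phenols, had -0.011 and -0.29. Neither passed. Glutathione transferases of the tau class, which like UGT enzymes act on foreign compounds, had 11 named probe sets, of which 4 were tested, 1 fell and none rose, with a median log2 ratio of 0.14 over the 4. Against the 9.68% of all tested probe sets that were called lower, 1 of 4 says nothing particular about the class. GSTU18 (At1g10360) fell, with 605 and 839 in the mutant, against 1142 and 1442 in WT (log2 ratio -0.85, adjusted p = 0.0184 from limma), a call lost without the term for the repeat (adjusted p = 0.165). GSTU27 had 0.46, GSTU16 0.18 and GSTU20 0.10, and these did not pass. Of the 7 not tested, GSTU15 (At1g59670), singled out after its values were seen, had 209.8 and 135 in the mutant, against 37.4 and 18.1 in WT, with log2 ratios of 2.49 and 2.90. GSTU21 and GSTU25 were also higher in both repeats. Lower in both were GSTU23, with log2 ratios of -0.85 and -2.61, and GSTU26, with -0.11 and -0.65. GSTU22 and GSTU28 had opposite signs in the repeats. Of 28 genes for the supply of nucleotide sugars only USP was named, with a log2 ratio of 0.03. Of 23 genes for monolignol and flavonol synthesis only HCT was named, with -0.38 (adjusted p = 0.157 from limma). Of 12 genes of salicylic acid synthesis and response only BSMT1 was named, and it was not tested. The 2 named phi class glutathione transferases were not tested. ATGSTF13 had log2 ratios of -0.94 and -3.16, and GSTF4 had 0.36 and -0.28. No ABCC transporter was named.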

How the data were processed

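RNA of each sample was hybridized to an Affymetrix ATH1 array. The deposited intensity of a probe set is its MAS 5.0 signal, not on a log scale, as the authors obtained it from the Affymetrix software after background correction and scaling. Settings of the fluidics station and scanner, per the file headers, served to check that eif3h and WT arrays of the same repeat had a common day and scanner. Gene symbols came from the platform's annotation (13513 with 1 symbol, 503 with several, 8730 with none), and TIF3H1 through the pairing of probe set and locus in the study's gene list.

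Log2 signals of the 8831 brightest probe sets, the number that the study's own detection filter left, entered a limma model (version 3.58.1, R 4.3.3; lmFit, eBayes; genotype and repeat; 1 residual and 6.58 prior degrees of freedom; Benjamini-Hochberg). The study's filter used detection calls on all its arrays, also those of other RNA fractions, so it need not have kept the same probe sets. Repeats were blocked because the methods form ratios within a repeat. Deviations of the same repeat in the 2 genotypes had a correlation of 0.53. On simulated data with 200 changed of 8831 probe sets, 67.0% of log2 changes of 1 and 100% of 2 were called, and 7.73% of calls were false. The simulated spread was drawn from limma's own fit with independent errors, and no smaller changes were set. These shares therefore need not hold for the real data. Named in full were called members, those over 2-fold in both repeats and the brightest of each family. Members and lists were chosen with earlier results of these data known. Alternatives were no block, quantile normalization, median centring, no limit on brightness, a higher limit (5000 probe sets), 50 added to each signal, a variance trend with brightness, omission of probe sets with possible cross-hybridization, the methods' 2-fold rule and leaving out each array. Python 3.11.15 with pandas 2.3.3, numpy 2.4.6 and matplotlib 3.10.9 was used for summaries. Precision is limited by there being 2 arrays a genotype.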

Additional observations from a re-analysis of the deposited data

How the results depend on the processing

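UGT87A2 was called higher and UGT88A1 lower in the eif3h mutant also under quantile normalization, centring on the array median, the 5000 brightest probe sets (which hold 7 UGT members), with 50 added to each signal, with a variance trend on brightness, without probe sets that may cross-hybridize and by the methods' 2-fold rule. None of the 47 is marked as possibly cross-hybridizing. Leaving such probe sets out could therefore change only the shared spread and the adjustment, not a UGT ratio. Without the replicate block limma called 0 UGT probe sets higher and 0 lower (81 of all tested probe sets), and over all probe sets it called 0 and 0 as well (6 at an unadjusted p under 0.05). With each array left out in turn, a fit made without the block, the number called higher ran from 0 to 1 and the number called lower from 0 to 0. UGT87A2 kept its call only without WT replicate 2 (log2 ratio 1.86, adjusted p = 0.0223 from limma); without the other arrays its adjusted p was 0.109 to 0.175, and that of UGT88A1 was 0.137 to 0.337 over all 4. In these fits the lone array of a group is assumed to vary like the other group. The log2 ratio of UGT87A2 then ran from 1.15 to 1.86 and that of UGT88A1 from -1.24 to -0.78. The median log2 ratio of the tested members, -0.14, ran from -0.36 (without eif3h replicate 1) to 0.082 (without eif3h replicate 2), and was -0.032 over all 47. No called member changed sign in any alternative, while 6 members that were not called (UGT72E1, UGT74D1, UGT76E11, UGT78D1, UGT78D2 and UGT84A3) changed sign when an array was left out, 11 changes in all over the 4 such fits. The cause of the lost calls was not tested.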
